A study of Saccharomyces cerevisiae with 18 samples.

Results

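The genes described here are the ENA sodium pumps of Saccharomyces cerevisiae and the pumps and carriers that move protons, sodium, potassium and calcium beside them. They are 10 of the 6577 genes in the deposited expression matrix: ENA1, ENA2, ENA5, PMA1, PMA2, NHA1, TRK1, TRK2, PMR1 and PMC1. Rows of the matrix were matched to these names by the systematic names of the R64 assembly, and all 10 were found. The set was chosen by measured values, the rlog changes of ENA2 and ENA5 between the genotypes, which had been seen, and was filled up with related pumps and carriers. For this reason the members' levels and differences are given as a description with no p-value, and counts of members that passed the threshold of the fit are printed beside the share of all tested genes as a description too. RNA was measured by poly-A RNA-seq in 9 libraries, 3 cultures for each of 3 genotypes, from strains in which the genomic copy of SPN1 was replaced by LEU2. SPN1 encodes a histone chaperone that travels with elongating RNA polymerase II, and the comparison asks how RNA levels differ when only a mutant form of it is present. Every strain carried SPN1 under its own promoter, tagged with myc, on a centromeric HIS3 plasmid, either as the wild-type gene, as spn1 K192N, which holds 1 changed residue, or as spn1 141-305, which keeps the central region of the protein. By the labels, wild-type has the genotype of BY4741, the parent, while the study's methods describe the plasmid strain given here. The study lists 1 strain for each form of SPN1. All cultures grew in rich medium with glucose at 30°C to the same density, and each received S. pombe cells as a spike-in.

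Yeast keeps its internal sodium low by pumping the ion out with the Ena P-type ATPases, which are encoded by a tandem array of nearly identical genes. ENA1 is known as the copy that responds to salt, alkaline pH and loss of glucose, through calcineurin and its transcription factor Crz1, through the kinase Snf1 and through Rim101. PMA1 encodes the major plasma membrane proton ATPase, whose gradient drives sodium and potassium out through the antiporter Nha1 and potassium in through Trk1 and Trk2. Pmr1 and Pmc1 are P-type ATPases of internal membranes, the Golgi and the vacuole, so that these members do not act at the plasma membrane itself.

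The ENA genes lie head to tail on the minus strand of chromosome IV in R64, and together they span chrIV:527422-538467. ENA5 (YDR038C) occupies chrIV:527422-530697, ENA2 (YDR039C) chrIV:531307-534582 and ENA1 (YDR040C) chrIV:535192-538467. Each coding sequence is 1 exon of 3276 bases that encodes 1091 residues, and 609 bases separate ENA5 from ENA2 and ENA2 from ENA1, so the unit repeats every 3885 bases. ENA1 and ENA2 differ at 43 bases, ENA2 and ENA5 at 34 and ENA1 and ENA5 at 77. The differences fall in blocks. Of the 43 bases at which ENA1 and ENA2 differ, 41 lie in the first 270 bases and the other 2 at positions 2257 and 2955, counted from the start codon. Of the 34 between ENA2 and ENA5, none lies before position 2644 and 30 lie in the last 109 bases. The proteins are 98.8% identical between ENA1 and ENA2 and between ENA2 and ENA5, with 13 different residues in each pair, and 97.6% identical between ENA1 and ENA5.

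**Figure D1:**
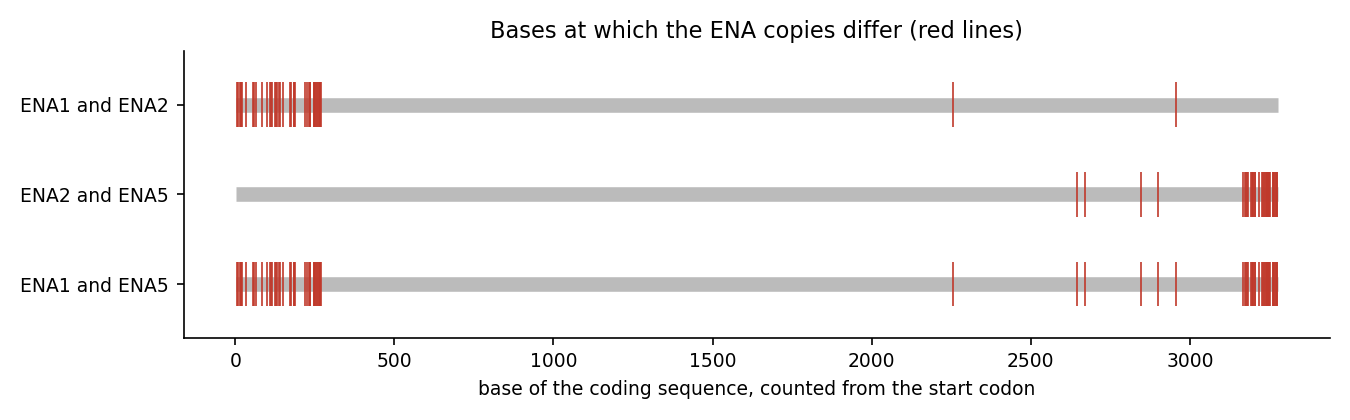
Each grey bar is the coding sequence of an aligned pair of ENA copies, with position in bases from the start codon on the x axis, and each red line is a base at which the pair differs. ENA1 and ENA2 differ at 43 bases, mostly at the 5′ end, ENA2 and ENA5 at 34, mostly at the 3′ end, and ENA1 and ENA5 at 77.

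The stretches printed here hold most of the bases at which the copies differ, and the others lie singly at positions 2257, 2644, 2670, 2847, 2901 and 2955. ENA5 is the same as ENA2 over the first 270 bases, and ENA1 is the same as ENA2 over the last 109, so each pair of lines covers all 3 copies. The sequences are from the RefSeq R64 genome, minus strand, written 5′ to 3′, and capitals mark the bases that differ within the pair. The first pair is chrIV:538198-538467 and chrIV:534313-534582, which are bases 1 to 270. The second pair is chrIV:531307-531415 and chrIV:527422-527530, which are bases 3168 to 3276.
ENA1 5′ stretch: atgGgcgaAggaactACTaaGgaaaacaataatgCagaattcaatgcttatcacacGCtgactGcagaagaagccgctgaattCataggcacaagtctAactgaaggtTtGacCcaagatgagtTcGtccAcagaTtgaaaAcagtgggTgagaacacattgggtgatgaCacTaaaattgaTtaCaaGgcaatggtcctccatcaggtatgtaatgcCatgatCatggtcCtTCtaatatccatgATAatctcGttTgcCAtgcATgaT
ENA2 5′ stretch: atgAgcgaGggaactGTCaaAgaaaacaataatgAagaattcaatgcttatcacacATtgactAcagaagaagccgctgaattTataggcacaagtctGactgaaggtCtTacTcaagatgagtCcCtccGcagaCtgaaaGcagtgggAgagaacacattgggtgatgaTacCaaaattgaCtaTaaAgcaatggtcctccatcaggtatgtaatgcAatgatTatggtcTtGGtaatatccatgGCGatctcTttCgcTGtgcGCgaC
ENA2 3′ stretch: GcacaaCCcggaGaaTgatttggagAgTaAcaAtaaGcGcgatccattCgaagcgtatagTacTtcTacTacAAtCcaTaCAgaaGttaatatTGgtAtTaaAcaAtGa
ENA5 3′ stretch: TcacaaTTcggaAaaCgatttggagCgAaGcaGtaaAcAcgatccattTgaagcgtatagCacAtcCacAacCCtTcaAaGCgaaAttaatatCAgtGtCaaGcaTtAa

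ENA2 thus has the 5′ end of ENA5 and the 3′ end of ENA1. In windows of 31 bases, the default word length of the Salmon quantifier, 10.2% of ENA1 and 7.02% of ENA5 occurred in no other ENA copy. For ENA2 the figure was 0 of 3246 windows, and the shortest run of bases found in ENA2 alone was 55 long. At 150 bases, the length of 1 read, 18.2% of the windows of ENA1, 3.07% of those of ENA2 and 15.6% of those of ENA5 were found in that copy alone. Every level given here for a single ENA copy therefore rests on a division of shared reads by the quantifier. How that division was made was not tested.

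The upstream sequences set ENA1 apart. The 609 bases before ENA2 and the 609 before ENA5 are identical, while the 300 bases before ENA1 match those before ENA2 at 38.7% of positions without gaps. The 300 bases before the start codons are printed to show this, at chrIV:538468-538767 for ENA1 and chrIV:534583-534882 for ENA2 and, by sequence, ENA5. Capitals mark matches to 6 motifs, searched on both strands.
ENA1 upstream: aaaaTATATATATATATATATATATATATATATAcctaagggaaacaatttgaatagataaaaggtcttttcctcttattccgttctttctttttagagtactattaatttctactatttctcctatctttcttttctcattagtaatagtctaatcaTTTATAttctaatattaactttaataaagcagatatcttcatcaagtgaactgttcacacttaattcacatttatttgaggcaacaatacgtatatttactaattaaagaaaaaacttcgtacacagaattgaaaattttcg
ENA2 upstream: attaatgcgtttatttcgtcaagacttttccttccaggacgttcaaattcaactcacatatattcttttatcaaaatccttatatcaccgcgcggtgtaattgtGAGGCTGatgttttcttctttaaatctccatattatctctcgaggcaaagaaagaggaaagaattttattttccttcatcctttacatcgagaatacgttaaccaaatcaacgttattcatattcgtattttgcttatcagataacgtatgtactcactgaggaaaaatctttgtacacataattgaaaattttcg

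The motifs were TATAAA and TATATA for the TATA box, GNGGCTG for the core of the element bound by Crz1, CCCCT and CCCTC for Nrg1 and CACGTG for Pho4. ENA1 held 1 match to TATAAA and 13 overlapping matches to TATATA in 1 repeat. Among 6001 promoters of the same length, 48.2% held TATAAA and 36% held TATATA. ENA2 and ENA5 held neither, and each held 1 match to GNGGCTG, which 4.97% of the promoters held. Among the other members, GNGGCTG had 2 matches before TRK2, TATAAA had matches before PMA1, PMA2, NHA1 and PMR1, and TATATA had matches before PMA2 and PMC1. CCCCT, present in 22.2% of promoters, matched before PMA2, NHA1, TRK2 and PMC1, and CCCTC, present in 22.7%, before NHA1, TRK1 and TRK2. CACGTG, present in 3.57%, matched before no member in these windows. Bases farther upstream than 300 were not searched, so a motif without a match here is not read as missing from the promoter.

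Levels are given on the rlog scale, a log2 scale in which DESeq2 draws each gene's values toward the gene's mean over the libraries, most strongly where counts are low. Size factors had been estimated on the S. pombe genes. A difference of 1 is a doubling on that scale, and a fold change computed from it can be smaller than one computed from counts. Differences between genotypes are from 1 limma fit of the 9 libraries over the 5954 genes whose rlog averaged log2(10) or more, all 10 members included. A gene was called when its Benjamini-Hochberg adjusted p over these genes was below 0.05. The comparisons of the mutants with wild-type share the same 3 wild-type libraries.

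The libraries differed in general level. The median deviation of the tested genes from their means was 0.018 to 0.113 in wild-type, −0.052 to −0.027 in spn1 141-305 and −0.062, −0.047 and 0.061 in spn1 K192N, where replicate 1 lay among the wild-type libraries. SPN1 itself had a mean rlog of 12.30 (SD 0.65) in the wild-type libraries, 12.81 (SD 0.71) with spn1 K192N and 11.31 (SD 0.42) with spn1 141-305. The spn1 141-305 gene lacks part of the SPN1 coding sequence, so its lower value is not read as fewer transcripts. Means of the plasmid marker HIS3 were 13.24 to 14.00, with SDs of 0.68, 0.78 and 0.42 in the same order of genotypes. Of the markers of a cells, STE2, STE6 and BAR1 had mean rlog levels of 12.11 to 14.62, and MFA1 and MFA2 were listed at 0. Of the alpha markers, STE3, MF(ALPHA)1 and MF(ALPHA)2 stood at 3.12 to 6.70 and SAG1 at 9.81 to 9.98. URA3 and MET17, which the parent lacks, were listed at 0 in all libraries.

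In wild-type, ENA1 and ENA2 were the abundant copies and ENA5 the scarce one. ENA1 had rlog levels of 12.92, 12.75 and 12.68 in wild-type replicates 1, 2 and 3, 12.58, 12.28 and 12.48 in spn1 K192N, and 12.33, 12.35 and 12.41 in spn1 141-305. All 6 mutant libraries lay below all 3 wild-type libraries, and the mutants overlapped each other. The difference in rlog from wild-type was −0.33 in spn1 K192N and −0.42 in spn1 141-305, with a standard error of 0.086. These are changes of −20.7% and −25.3% on the linear scale.

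ENA2, the middle copy, differed more. Its rlog levels were 12.54, 12.45 and 12.35 in wild-type, 11.69, 11.49 and 11.37 in spn1 K192N and 11.12, 11.15 and 10.77 in spn1 141-305. The 3 genotypes formed 3 ranges without overlap, with spn1 141-305 lowest. Against wild-type the difference in rlog was −0.93 in spn1 K192N and −1.43 in spn1 141-305, with a standard error of 0.094. On the linear scale these are changes of −47.6% and −62.9%. From spn1 K192N to spn1 141-305 the difference was −0.50, and with each library left out in turn it ran from −0.57 to −0.38.

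ENA5, the copy nearest the lysyl-tRNA synthetase gene KRS1, went the other way. Its rlog levels were 8.16, 8.15 and 8.16 in wild-type, 11.39, 11.10 and 11.24 in spn1 K192N and 11.00, 11.19 and 11.00 in spn1 141-305. All mutant libraries stood far above all wild-type libraries, and the mutants overlapped. The difference in rlog from wild-type was 3.09 in spn1 K192N and 2.91 in spn1 141-305, with a standard error of 0.076, or 8.51-fold and 7.52-fold on the linear scale. Between the mutants the difference was −0.18. Leaving out 1 library at a time gave differences from wild-type of 3.02 to 3.16 and of 2.85 to 2.94.

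The wild-type values of ENA5 lay closer together than those of most genes. Their SD was 0.0042, and 0.319% of the tested genes had a smaller one, where the median SD of the tested genes in wild-type was 0.065. Over the 9 libraries, the mean of 2^rlog of ENA5 was 78.8% of the authors' mean scaled count, and that of ENA2 93.6%. For the other 8 members it was 98.7% to 99.8%. The rlog transformation thus drew ENA5 together more than the other members, and its difference on the count scale was not computed here. Its wild-type rlog may be set largely by the transformation, and its wild-type count may be much lower. The fold changes, standard error, shares and level per kilobase given for ENA5 rest on these rlog values.

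**Figure D2:**
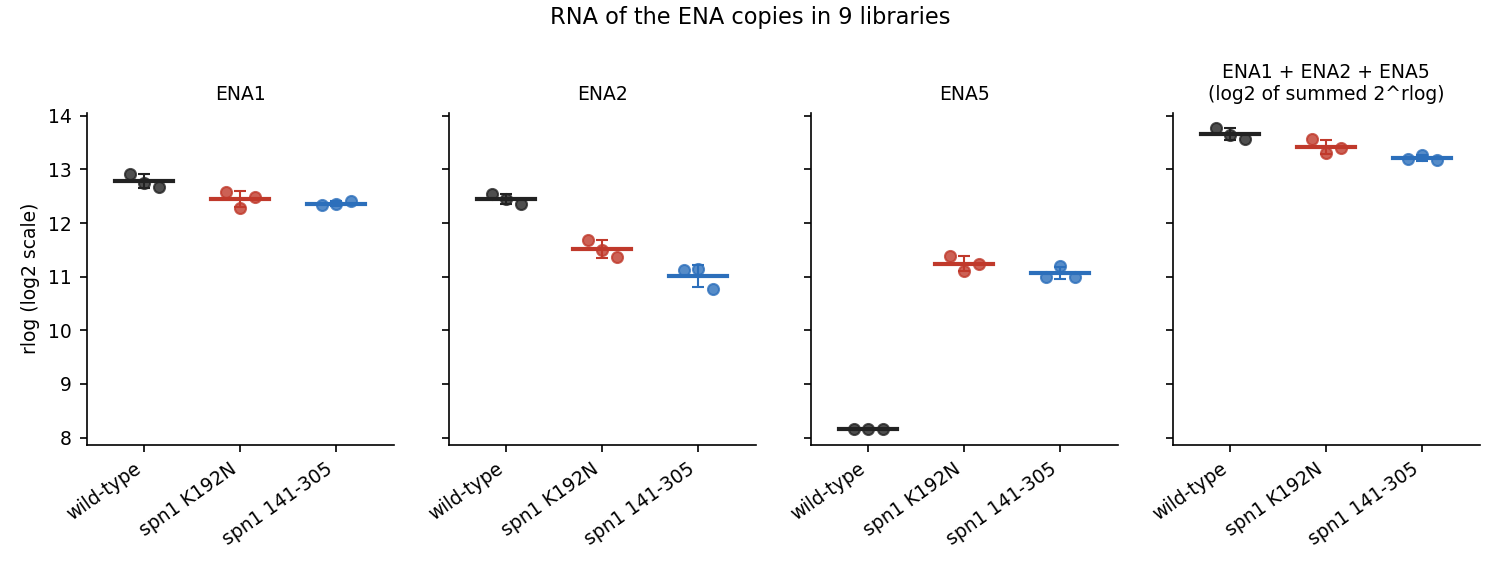
The y axis gives rlog, a log2 scale, for ENA1, ENA2 and ENA5 in the 9 libraries, and in the last panel the log2 of their summed 2^rlog. Points are libraries, thick bars are means and thin bars are 1 SD over 3 libraries. From the left group to the right, means are 12.45, 11.52 and 11.02 for ENA2, 8.15, 11.24 and 11.07 for ENA5 and 13.66, 13.42 and 13.21 for the sum.

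Since the copies share reads, they were also added up as 2^rlog in each library, which depends less on how reads were divided among them. The log2 of the sum was 13.77, 13.64 and 13.56 in wild-type, 13.56, 13.30 and 13.40 in spn1 K192N and 13.20, 13.27 and 13.17 in spn1 141-305. The last of these genotypes was lowest in all its libraries, while spn1 K192N replicate 1 lay level with wild-type replicate 3. Relative to wild-type the sum changed by −15.3% in spn1 K192N, a log2 difference of −0.24, and by −26.5% in spn1 141-305, a log2 difference of −0.44. The sum rests on 2^rlog, whose mean was 78.8% of the authors' mean scaled count for ENA5 and 93.6% for ENA2. Its change on the count scale was not computed and may differ. The mean of the 3 rlog values is not a total, since the scarce copy weighs as much in it as the abundant ones. This mean was higher than wild-type by 0.61 in spn1 K192N and by 0.35 in spn1 141-305.

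Within the sum, ENA1 held the largest share, at 54.5% ± 0.68 (SD, n = 3) of the wild-type total, 51% ± 1.8 with spn1 K192N and 55.5% ± 3 with spn1 141-305. The shares of ENA2 and ENA5 differed between wild-type and the mutants. ENA2 held 43.3% ± 0.57 of the wild-type total, 26.8% ± 2.1 with spn1 K192N and 21.9% ± 2.6 with spn1 141-305, and ENA5 held 2.21% ± 0.16, 22.1% ± 0.32 and 22.6% ± 1.1 in the same order. In units of 2^rlog, ENA2 changed by −2655 and ENA5 by 2149 in spn1 K192N, and in spn1 141-305 ENA2 changed by −3510 and ENA5 by 1862. The changes of ENA1 were −1457 and −1798. The rlog scale draws ENA5 together more than ENA2, so the sizes of these changes were not compared between the copies. For the same reason the share of ENA5 in the wild-type counts may be lower than the share given here.

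The annotated genes on either side of the array differed little. KRS1, which lies 206 bases from ENA5 on the other strand, had a difference in rlog from wild-type of −0.06 in spn1 K192N and −0.09 in spn1 141-305. EHD3 had −0.12 and −0.04, and ARO3 −0.09 and −0.07. On the ENA1 side, RSM10, 1335 bases away, had −0.08 and −0.01, and YDR042C had −0.01 and −0.09. None of these 5 genes was called against wild-type, with limma adjusted p from 0.0982 to 0.912. SNR47 was not analysed here.

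PMA1 (YGL008C, chrVII:479910-482666, minus strand) was the most abundant member, and its mean rlog stood above that of 99.8% of the tested genes. Its rlog levels were 17.90, 17.91 and 17.80 in wild-type, 17.96, 17.69 and 17.73 in spn1 K192N and 17.57, 17.67 and 17.61 in spn1 141-305. Those of spn1 141-305 were the lowest, and spn1 K192N overlapped wild-type, with replicate 1 above it. The difference in rlog from wild-type was −0.08 in spn1 K192N and −0.25 in spn1 141-305, with a standard error of 0.1. The latter is a change of −16.1% on the linear scale.

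PMA2 (YPL036W, chrXVI:482843-485686, plus strand) encodes a second proton ATPase, 90% identical to Pma1 over 916 aligned residues, that is known as a minor isoform. It had rlog levels of 9.24, 9.20 and 9.28 in wild-type, 9.20, 9.01 and 9.14 in spn1 K192N and 8.94, 9.10 and 8.91 in spn1 141-305. Only the spn1 141-305 range was clear of wild-type. Its difference in rlog from wild-type was −0.12 in spn1 K192N and −0.26 in spn1 141-305, with a standard error of 0.067. The coding sequences of PMA1 and PMA2 share 108 windows of 31 bases and none of 75. The authors' mean scaled count was 223650 for PMA1 and 560 for PMA2. Whether reads of PMA1 were counted for PMA2 was not tested.

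NHA1 (YLR138W, chrXII:418437-421394, plus strand) encodes the antiporter that exchanges sodium or potassium for protons. Its rlog levels were 11.86, 11.81 and 11.77 in wild-type, 11.74, 11.47 and 11.43 in spn1 K192N and 11.46, 11.56 and 11.45 in spn1 141-305. All mutant libraries were below wild-type, spn1 K192N replicate 1 by the least. NHA1 differed from wild-type in rlog by −0.26 in spn1 K192N and −0.32 in spn1 141-305, with a standard error of 0.082.

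TRK1 and TRK2 encode the high-affinity potassium uptake system. The proteins are 56.2% identical over 885 aligned residues, and the coding sequences share no window of 31 bases. TRK1 (YJL129C, chrX:173599-177306, minus strand), the major of the pair, had rlog levels of 11.20, 11.22 and 11.15 in wild-type, 10.95, 10.94 and 10.78 in spn1 K192N and 10.80, 10.89 and 10.84 in spn1 141-305. All mutant libraries lay below wild-type, with spn1 K192N replicate 1 beside replicate 2. TRK1 differed from wild-type in rlog by −0.30 in spn1 K192N and −0.35 in spn1 141-305, with a standard error of 0.073. TRK2 (YKR050W, chrXI:527815-530484, plus strand) had rlog levels of 10.32, 10.20 and 10.23 in wild-type, 10.32, 10.12 and 10.09 in spn1 K192N and 10.05, 10.03 and 9.98 in spn1 141-305. Here spn1 K192N replicate 1 equalled the highest wild-type library, and spn1 141-305 was below all others. TRK2 differed from wild-type in rlog by −0.07 in spn1 K192N and −0.23 in spn1 141-305, with a standard error of 0.072.

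PMR1 and PMC1 encode the calcium pumps of the Golgi and the vacuole, and Pmr1 also carries manganese. PMR1 (YGL167C, chrVII:187616-190468, minus strand) had rlog levels of 12.67, 12.57 and 12.51 in wild-type, 12.52, 12.25 and 12.18 in spn1 K192N and 12.27, 12.38 and 12.37 in spn1 141-305. Only spn1 K192N replicate 1 reached into the wild-type range. PMR1 differed from wild-type in rlog by −0.27 in spn1 K192N and −0.25 in spn1 141-305, with a standard error of 0.087. PMC1 (YGL006W, chrVII:485921-489442, plus strand), a target of Crz1, had rlog levels of 10.71, 10.55 and 10.45 in wild-type, 10.44, 10.07 and 10.02 in spn1 K192N and 10.22, 10.30 and 10.22 in spn1 141-305. All mutant libraries were below wild-type, although spn1 K192N replicate 1 nearly met it. PMC1 differed from wild-type in rlog by −0.39 in spn1 K192N and −0.32 in spn1 141-305, with a standard error of 0.088.

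**Figure D3:**
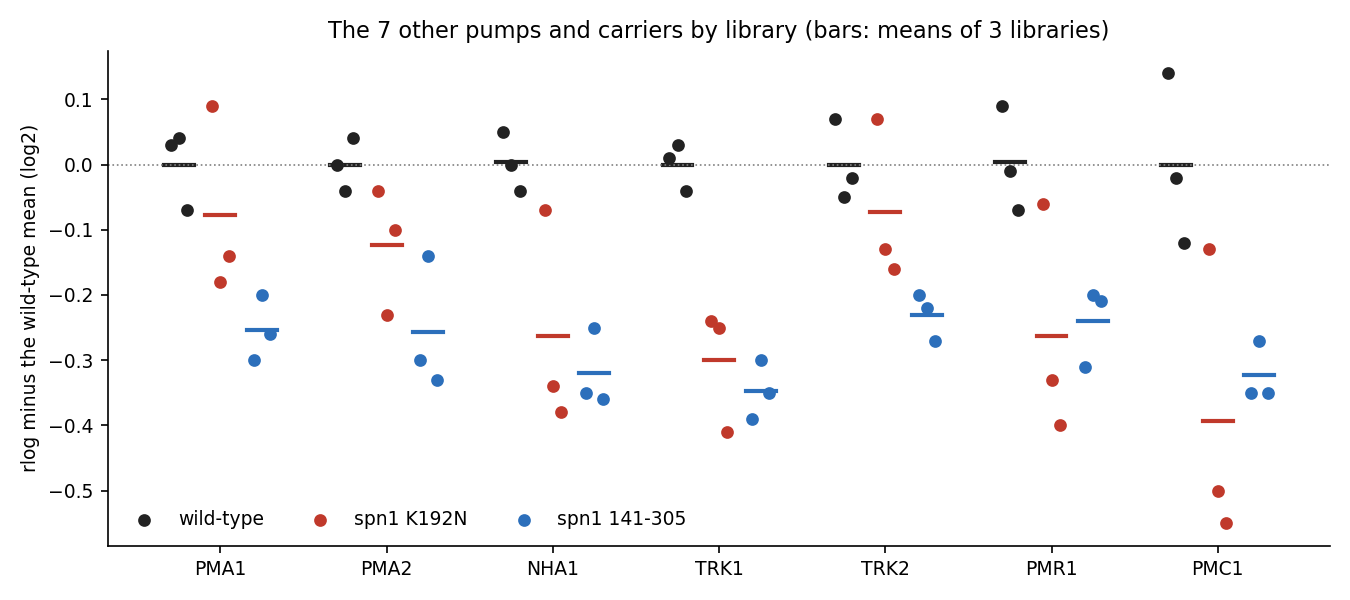
The y axis gives each library's rlog minus the wild-type mean of that gene, on the log2 scale, for the 7 members outside the ENA array. Points are libraries in order of replicate and bars are means of 3 libraries. The spn1 141-305 libraries lie below wild-type for all 7 genes, and spn1 K192N replicate 1 is the highest of its genotype in each.

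Levels of different genes were compared per kilobase of coding sequence, as rlog minus the log2 of the length in kilobases. In wild-type the order, as mean rlog per kilobase, was PMA1 at 16.41, ENA1 and PMR1 at 11.07 each, ENA2 at 10.74, NHA1 at 10.25, TRK1 at 9.30, TRK2 at 8.84, PMC1 at 8.75, PMA2 at 7.73 and ENA5 at 6.44. ENA1 and PMR1 overlapped, as did TRK2 and PMC1, and the other neighbours in this order did not. ENA5 moved from the last place to the sixth in spn1 K192N, at 9.53, and to the fifth in spn1 141-305, at 9.35. There it overlapped ENA2, which stood at 9.80 in spn1 K192N and 9.30 in spn1 141-305. PMR1 stood at 10.80 and ENA1 at 10.74 in spn1 K192N, where the libraries overlapped, and in spn1 141-305 they stood at 10.83 and 10.65 without overlap. PMA1 stayed first and PMA2 was last in both mutants, at 7.61 and 7.47.

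In the comparison of spn1 K192N with wild-type, 4 members were called lower, ENA1, ENA2, TRK1 and PMC1, where 4.8% of all tested genes were. ENA5 was the 1 member called higher, where 0.403% of tested genes were. Without wild-type replicate 1 only ENA2 was called lower, without wild-type replicate 2 ENA2 and PMC1, without spn1 K192N replicate 2 ENA2 and TRK1, and without replicate 3 of that genotype ENA1 and ENA2. These fits called 50, 142, 138 and 119 of the 5954 tested genes lower, in that order. Without spn1 K192N replicate 1, 7 members were called lower, all but PMA1 and TRK2 of the 9 below 0. That fit called 2031 of the 5954 tested genes lower. In the comparison of spn1 141-305 with wild-type, 8 members were called lower, all but PMA1 and ENA5, where 18.8% of tested genes were, and ENA5 was called higher, where 0.453% were. PMA1 too was called lower without spn1 K192N replicate 1 or 2, with only the 2 genotypes compared, or with 1 prior variance for genes of all levels. These settings called 2038, 1097, 2077 and 1073 of the 5954 tested genes lower, in that order. Without wild-type replicate 1, 3 members were called lower, ENA1, ENA2 and TRK1, where 278 of the 5954 tested genes were. The calls were ENA1, ENA2, NHA1, TRK1 and PMC1, 5 in number, without spn1 141-305 replicate 1, without its replicate 3, or with the libraries centred on their median genes. These settings called 470, 561 and 494 of the tested genes lower, in that order.

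All 3 mutant libraries were below all 3 wild-type ones for 5 members in spn1 K192N, an order that 18.8% of tested genes had, and for 9 in spn1 141-305, where 45% had it. The 10 members had a median difference of −0.27 with spn1 K192N and −0.29 with spn1 141-305, against −0.08 and −0.09 over all tested genes. In both comparisons 9 of the 10 members were below 0, as were 83.6% and 86.3% of the tested genes. Nothing is read from these counts about the members as a group, since they were chosen with the values known.

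**Figure D4:**
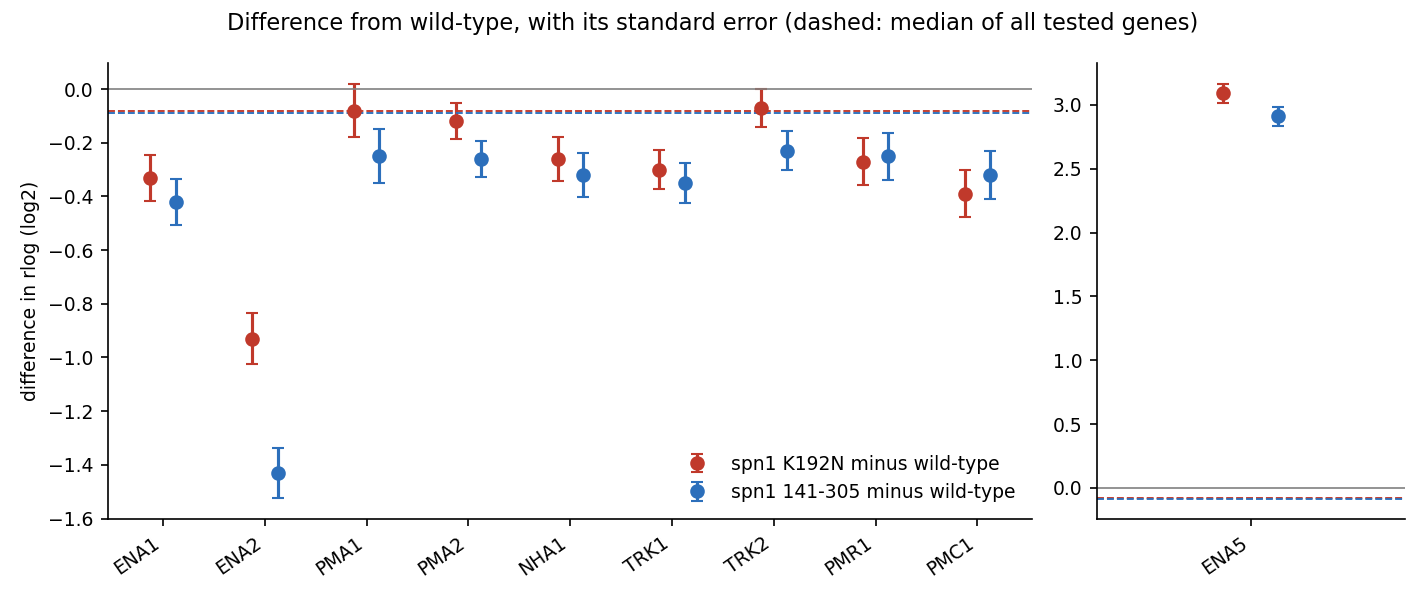
The y axis gives the difference in rlog of each member between a mutant and wild-type, with the standard error of the fit as bars, and the dashed lines mark the median of all tested genes, −0.08 and −0.09. ENA5 has its own axis in the right panel. ENA2 at −0.93 and −1.43 and ENA5 at 3.09 and 2.91 stand apart from the other 8 members, which lie between −0.42 and −0.07.

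Between the mutants, spn1 141-305 minus spn1 K192N, 1 member, ENA2, was past the threshold on the lower side, as were 1.28% of tested genes, and 0.621% of tested genes were past it on the higher side. ENA2 was among the values that chose the members, so nothing is read from this. For 3 members, ENA2 at −0.50, PMA1 at −0.18 and TRK2 at −0.16, all spn1 141-305 libraries were below all those of spn1 K192N, an order that 12% of tested genes had. The 7 others overlapped, with differences in rlog from −0.18 for ENA5 to 0.07 for PMC1.

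The genes that regulate or accompany the pumps were taken from 9 lists, which hold 79 distinct tested genes. These genes are not members and were tested, but the lists too were chosen with earlier results of these data known. Their p-values are therefore given as a description. In spn1 K192N 12 of the 79 were lower than wild-type and 0 higher by limma, where 4.8% and 0.403% of all tested genes were, with 1 higher and 28 lower at an unadjusted p below 0.05. In spn1 141-305 28 were lower and 0 higher, where 18.8% and 0.453% of all tested genes were, with 0 higher and 41 lower at an unadjusted p below 0.05. The median differences in rlog were −0.11 and −0.16. Leaving out wild-type replicate 1 gave 5 and 11 calls, and leaving out spn1 K192N replicate 1 gave 42 and 43. Over all 5954 tested genes the first fit gave 62 and 296 calls and the second 2075 and 2094. In spn1 K192N 5 of the 12 calls, and in spn1 141-305 11 of the 28, held in each of the 9 fits that left out 1 library. These were PHO89, CMK2, KHA1 and PTK1 in both mutants, RCN2 in spn1 K192N, and HAL5, HRK1, VNX1, VMA1, SPF1, DNF2 and DNF3 in spn1 141-305. All other calls of the lists were lost in 1 or more of these fits.

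Calcineurin is the calcium-dependent phosphatase that activates Crz1, and 2 of 10 genes of this pathway were lower in both mutants. CMK2, a calmodulin-dependent kinase gene, had a difference in rlog of −0.88 (standard error 0.13, limma adjusted p = 3.36e-05) in spn1 K192N and −0.70 (limma adjusted p = 0.000526) in spn1 141-305. RCN2, which encodes a regulator of calcineurin, had −0.36 (limma adjusted p = 0.00166) and −0.22 (limma adjusted p = 0.0298). The second value of RCN2 was not called without wild-type replicate 1 (limma adjusted p = 0.182), replicate 2, or spn1 141-305 replicate 1 or 2. The genes of calcineurin itself, CNA1, CMP2 and CNB1, and CRZ1 were not called. Of 8 Crz1 targets outside the members, 4 were called lower for each mutant. PHO89, which encodes a sodium-phosphate cotransporter of the plasma membrane, had −2.59 (standard error 0.13, limma adjusted p = 4.13e-14) and −1.83 (limma adjusted p = 1.54e-10). GSC2, a glucan synthase gene, had −0.64 and −0.33 and was called in both. The call of GSC2 was lost without wild-type replicate 1 (limma adjusted p = 0.0608 in spn1 K192N and 0.304 in spn1 141-305). Of the 9 fits that left out 1 library, it held in 8 for spn1 K192N and in 4 for spn1 141-305. PUN1 was the other gene called in spn1 K192N, at −0.28, and GYP7 the other in spn1 141-305, at −0.28. The list medians were −0.11 and −0.12 for the calcineurin genes and −0.23 and −0.24 for the Crz1 targets.

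Regulators of salt tolerance and of ENA1 were called in part. Of 8 halotolerance genes 1 was lower in spn1 K192N and 3 in spn1 141-305. HAL5, a kinase gene that stabilises the Trk transporters, had differences in rlog of −0.24 (limma adjusted p = 0.0469) and −0.34 (limma adjusted p = 0.00243), and the first call was kept in 1 of the 9 fits that left out a library. SAT4, a related kinase gene, had −0.26 and SIS2, which encodes an inhibitor of the Ppz phosphatases, −0.20 in spn1 141-305. Of 12 transcriptional regulators of ENA1, which include NRG1, RIM101, MIG1, SNF1 and SKO1, only CYC8, which encodes a subunit of the Tup1 corepressor complex, was called, at −0.28 (limma adjusted p = 0.0252) and −0.27 (limma adjusted p = 0.0121). Without wild-type replicate 1 CYC8 had limma adjusted p = 0.151 in spn1 K192N. Of the 9 fits that left out 1 library, its call held in 5 for spn1 K192N and in 6 for spn1 141-305. The list medians were −0.06 and −0.17 for halotolerance and −0.09 and −0.12 for the regulators.

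Partners of the pumps and other carriers were lower in part. Among partners of Pma1, 6 of the 8 were tested, and 2 of them were called lower for spn1 K192N and 3 for spn1 141-305. PTK1, a kinase gene, had differences in rlog of −0.44 (limma adjusted p = 0.000314) and −0.49 (limma adjusted p = 6.15e-05). PTK2, whose kinase activates Pma1, had −0.28 and −0.19, and HRK1 had −0.35 in spn1 141-305. Among 5 other carriers of sodium, potassium or protons, KHA1, a putative potassium-proton antiporter gene, had −0.62 (limma adjusted p = 0.000213) and −0.61 (limma adjusted p = 0.000214). VNX1, which encodes a vacuolar cation-proton exchanger, had −0.13 (limma adjusted p = 0.335) in spn1 K192N and −0.44 (limma adjusted p = 0.000672) in spn1 141-305. VNX1 was lower in spn1 141-305 than in spn1 K192N by a difference of −0.32 (limma adjusted p = 0.035), and PHO89 was higher there by 0.76 (limma adjusted p = 0.0018). As single libraries were left out, the call of PHO89 between the mutants held in 9 of 9 fits and that of VNX1 in 4, with a highest limma adjusted p = 0.163 without spn1 141-305 replicate 1. VNX1 also lost it without wild-type replicate 1, spn1 K192N replicate 1 or either other spn1 141-305 library. With 1 prior variance for genes of all levels, no gene of the 9 lists was called between the mutants.

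Of 9 calcium and manganese carriers outside the members, 5 were lower in spn1 141-305. The limma calls in spn1 K192N were 0, with 3 lower and 1 higher at an unadjusted p below 0.05, and the difference between the mutants passed the test for 1 gene. CCH1 and MID1, which encode parts of the plasma membrane calcium channel, had differences in rlog of −0.35 and −0.30 in spn1 141-305, VCX1, a vacuolar exchanger gene, −0.27, and the manganese transporter genes SMF1 and SMF2 −0.27 and −0.31. SMF1 was the gene that differed between the mutants, by −0.31 (limma adjusted p = 0.0276), a call kept in 3 of 9 fits that left out 1 library, those without wild-type replicate 2, wild-type replicate 3 or spn1 K192N replicate 3. Of 9 other P-type ATPases, CCC2 was lower in spn1 K192N and 6 genes in spn1 141-305. Among the latter were SPF1, a pump gene of the endoplasmic reticulum, at −0.43 (limma adjusted p = 0.00246), and the flippase genes DNF2 at −0.38, DNF3 at −0.34 and DRS2 at −0.27. Of 15 subunits of the vacuolar proton ATPase, 1 was lower in spn1 K192N, STV1 at −0.28, and 3 in spn1 141-305, VMA1 at −0.35, VPH1 at −0.25 and STV1 at −0.23. Among all tested genes 4.8% and 18.8% were lower, and nothing particular to these subunits is read from the counts. The list medians in spn1 K192N and spn1 141-305 were −0.10 and −0.27 for the calcium and manganese carriers, −0.16 and −0.22 for the P-type ATPases and −0.10 and −0.13 for the proton ATPase.

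**Figure D5:**
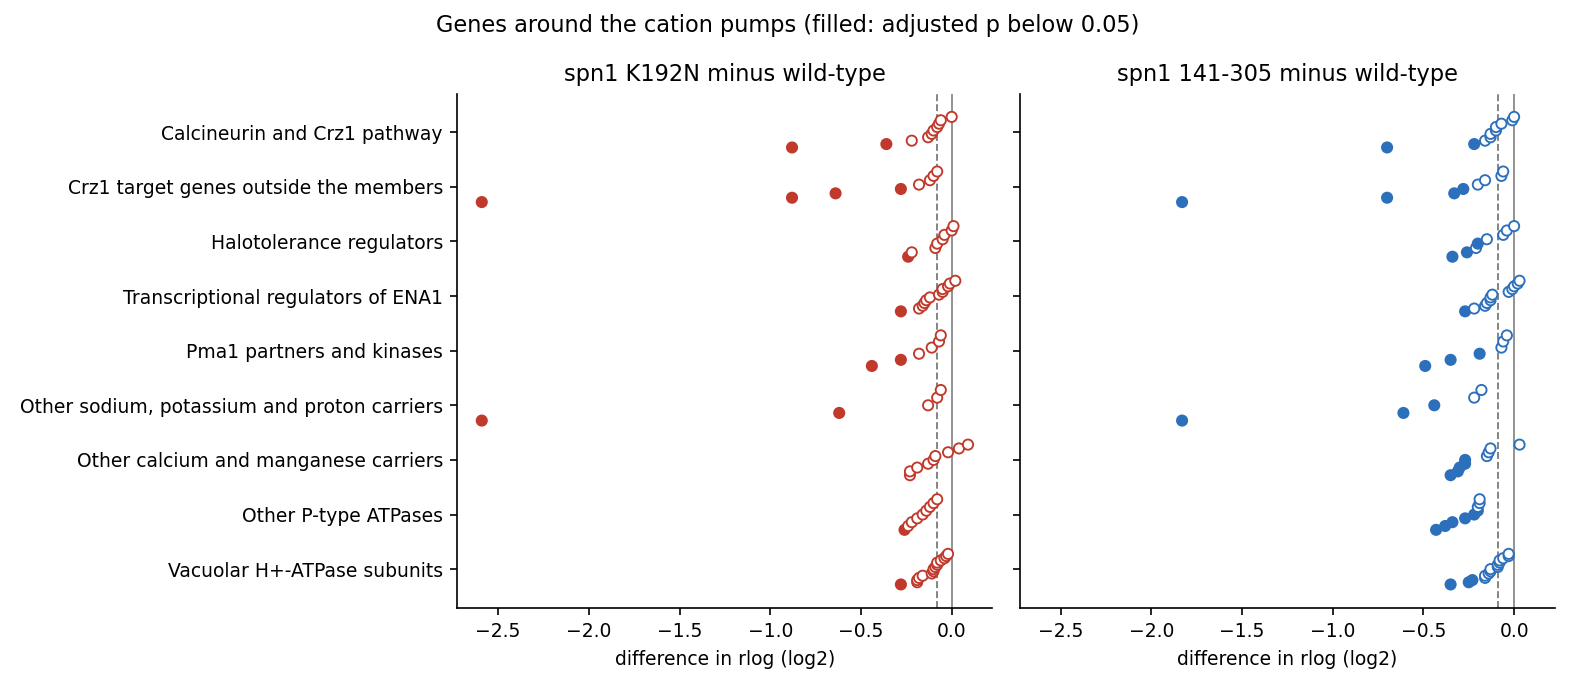
Each point is a gene of the list named on the y axis, with its difference in rlog from wild-type on the x axis, and filled points passed an adjusted p of 0.05. The solid line marks 0 and the dashed line the median of all tested genes. Filled points lie on the lower side in both mutants, and PHO89 at −2.59 and −1.83 lies farthest out.

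The genes most like ENA2 and ENA5 were sought over the 9 libraries among 367 tested genes whose rlog ranged over at least 0.5. Pearson's r with ENA2 was 0.987 for STT4, which encodes a phosphatidylinositol kinase, 0.978 for RKM3, 0.976 for CAF120, 0.974 for RTT10 and 0.972 for YUR1. Their differences from wild-type were smaller than those of ENA2, from −0.30 to −0.23 in spn1 K192N and from −0.50 to −0.39 in spn1 141-305. The r with ENA5 was 0.969 for IMD2, an inosine monophosphate dehydrogenase gene, 0.938 for YHR214W-A, 0.914 for YHR214W, 0.872 for SSU1 and 0.733 for CAR1. IMD2 was higher than wild-type by 1.02 in spn1 K192N and 0.76 in spn1 141-305, against 3.09 and 2.91 for ENA5. The libraries share a general shift and their genotypes, so these correlations over 9 libraries are a description and carry no p-value.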

How the data were processed

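Poly-A RNA was sequenced from 9 libraries, 3 per genotype, in paired reads of 150 bases, and the libraries were grouped by their labels. The authors quantified transcripts with Salmon 1.9 against S. cerevisiae and S. pombe cDNA and estimated size factors on the S. pombe genes with DESeq2 1.30.1 in R 4.0.3. The deposited matrix holds log2 values that the authors made with the rlog function. The authors' comparison tables give, for each gene, a log2 fold change, its p-values and a mean scaled count. Of these only the mean scaled count, a signal that the authors averaged over all libraries, was used, and the fold changes and p-values were not. Counts per library were not used here. Library depth is therefore unknown, and counting intervals cannot be given. The chromatin data of the study were not analysed here.

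The members and the gene lists were chosen with earlier results of these data known. Genes were named by a rule: all members, SPN1, HIS3, the strain and mating-type markers, the 3 annotated genes nearest the ENA array on each side, up to 4 called genes per list with the largest differences, and the 5 genes most like ENA2 and ENA5. CCC2, PUN1 and SMF1 were named after their values were seen, to complete small counts, and CNA1, CMP2, CNB1, CRZ1, NRG1, RIM101, MIG1, SNF1 and SKO1 were named outside the rule, without values, to say what their lists hold. The study's own test needs counts, so limma 3.58.1 in R 4.3.3 was run on rlog, with the genotypes' means as coefficients, an intensity trend in the prior variance and two-sided tests, over the 5954 genes whose rlog averaged log2(10) or more. P-values set a difference of genotype means against the spread between the 3 cultures of a genotype, pooled over the 9 libraries. Since the study lists 1 strain for each form of SPN1, its effect cannot be told apart from any other difference between the strains. Sequences came from the R64 genome in RefSeq, read with Python 3.11.15 and Biopython 1.88, and proteins were translated from it and aligned globally with a gap opening of 11 and an extension of 1. Figures used matplotlib 3.10.9. As alternatives, the filter was dropped or raised, libraries were centred on their median gene, the prior variance was held constant, only the genotypes compared were fitted, a replicate block was added and each library was left out.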

Additional observations from a re-analysis of the deposited data

How the results depend on the processing

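Called genes totalled 310 in spn1 K192N and 1147 in spn1 141-305 against wild-type and 113 between the mutants. They moved by over 1.5 times under some alternatives. With libraries centred on the median gene, 683 genes were called in spn1 141-305 and 253 between the mutants, and lower genes made up 71.7%, 72.3% and 56.1% of the calls in the 3 comparisons in place of 92.3%, 97.6% and 67.3%. A constant prior variance gave 173 calls in spn1 K192N and 19 between the mutants. A fit of only the 2 genotypes compared gave 2136 in spn1 141-305. With each library left out, the totals in spn1 K192N were lowest at 62, wild-type replicate 1 being out, and highest at 2075, spn1 K192N replicate 1 being out, and those in spn1 141-305 were 296 and 2094 without the same libraries. They ran from 63 to 188 between the mutants, and without spn1 K192N replicate 1 the majority there turned, with 72 lower and 116 higher (38.3% lower). The cause was not tested. With the replicate number as a block, 501 genes were called in spn1 K192N, 1457 in spn1 141-305 and 146 between the mutants. The numbers were not shown to pair the samples: same-numbered libraries had correlations from −0.275 to 0.245, 3 of 9 pairs were over 0.1 and 3 of 9 libraries correlated best with their own number.

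The summed ENA level ran from −0.31 to −0.18 in spn1 K192N, from −0.49 to −0.39 in spn1 141-305 and from −0.27 to −0.13 between the mutants as each library was left out. The mean of the 3 rlog values, which is not a sum, had the other sign, at 0.61 in spn1 K192N and 0.35 in spn1 141-305. The sum of ENA1 and ENA2 alone was −0.57 and −0.78. For the sum of all 3 copies, centred libraries gave −0.16 in spn1 K192N and −0.34 in spn1 141-305. No member's difference from wild-type changed sign, except that under centring PMA1 and TRK2 in spn1 K192N came to 0.00. A constant prior variance took ENA2 out of the calls between the mutants, took PMC1 out of the calls in spn1 K192N, and put PMA1 in the place of PMR1 in spn1 141-305, and without a filter PMR1 was not called there. Of the members' values in the other alternatives, 169 moved by less than the replicate spread and 11 by more, each of them under centring. Apart from centring, those alternatives cannot change a difference of group means, so the count of 169 is no measure of stability. The 270 values with 1 library left out moved by less than the spread. Among them, leaving out a library of the genotype not compared cannot move a value. Windows of 75 bases found 13.1% of ENA1, 0.656% of ENA2 and 10.6% of ENA5 in no other copy, and those of 150 bases 18.2%, 3.07% and 15.6%. By Spearman's rho, 1 of the 5 genes most like ENA2 and 2 of the 5 most like ENA5 were the same. The count of 28 list genes in spn1 141-305 was 18 with centred libraries.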
